A study of Mus musculus with 9 samples.

Results

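The transcripts of 10 mouse genes for interferon-gamma-induced GTPases were followed in splenic type 2 dendritic cells: the guanylate-binding proteins (GBPs) *Gbp2*, *Gbp3*, *Gbp4*, *Gbp5*, *Gbp7* and *Gbp9*, and the immunity-related GTPases (IRGs) *Irgm1*, *Irgm2*, *Igtp* and *Iigp1*. They were taken by symbol from the 24054 genes of the expression files, and all 10 were tested, as part of the 14452 genes whose counts averaged 1 or more over the libraries. The 9 libraries came from spleens of C57BL/6 mice with the genotype Clec9a-Cre/Cre Rosa-tdTomato/tdTomato, in which Cre is expressed from the *Clec9a* locus and TOMATO (TOM) then marks a cell with a history of *Clec9a* expression. Both alleles carried Cre in every group, so there was no Cre-negative or heterozygous control. Live single cells without autofluorescence that were CD11c+, MHCII+ and CD11b+ were sorted by TOM into 3 groups of 3 libraries. Mice at 8 days of age, whose spleens were pooled, gave TOM+ cDC2 and TOM- DC2, and adult mice of 8 weeks (2 libraries) or 9 weeks (1 library) gave TOM+ cDC2. No adult TOM- group was analysed. Libraries are named by the number in their deposited name, 81, 91 and 92 in both young groups and 91, 92 and 95 in adults, and values are listed in that order.

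GBPs are large and IRGs smaller GTPases that cells make in quantity after interferon-gamma binds its receptor, in part through the transcription factor IRF1. GBPs assemble on the vacuoles and membranes of intracellular bacteria and parasites, helping to break them open and to expose microbial products to inflammasomes. Among the IRGs, the IRGM proteins sit on the cell's own membranes and hold the effector IRGs inactive there, while effectors such as the *Iigp1* product load onto pathogen vacuoles. Type I interferon can also raise many of these genes.

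Most of the genes lie in clusters of near relatives, given here from the RefSeq annotation of GRCm38.p6, the mm10 build to which the reads had been mapped. *Gbp5* (chr3:142496934-142522344), *Gbp7* (chr3:142530336-142550151), *Gbp3* (chr3:142560016-142573213) and *Gbp2* (chr3:142620663-142638008) lie in this order on chromosome 3, with the non-member *Gbp2b* between *Gbp3* and *Gbp2*. *Gbp9* (chr5:105076464-105110357) and *Gbp4* (chr5:105115767-105139586) are neighbours on chromosome 5. *Irgm1* (chr11:48865245-48871420) lies apart from *Igtp* (chr11:58199556-58207592) and *Irgm2* (chr11:58214977-58222783) on chromosome 11, and *Iigp1* lies elsewhere in the genome.

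The sequence upstream of the start site is shown because it holds the letters through which interferon-activated factors are known to bind. RefSeq promoter entries were matched for 7 of the 10 members. In the 250 bases upstream of the start site, all 7 held at least 1 GAAA repeat (GAAA, any 2 bases, GAAA), the core of the interferon-stimulated response element bound by IRF proteins, searched on both strands. Among all 32851 promoters of that length the share was 2.98%, and among their 27025 genes, with any start site counted, 3.46%. The windows below run from 20 bases before the first match to 20 bases after the last, or to the base before the start site, with every base of a match in capitals, 5′ to 3′ on the strand of the gene; where the match is to the other strand it reads as TTTC, any 2 bases, TTTC. They are chr3:142496749-142496798, chr3:142530263-142530312, chr3:142559979-142560034 and chr3:142620584-142620633 on the plus strand, chr11:48871421-48871470 on the minus strand, and chr11:58199502-58199551 and chr11:58214893-58214942 on the plus strand.
Gbp5: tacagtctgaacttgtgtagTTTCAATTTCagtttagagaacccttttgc
Gbp7: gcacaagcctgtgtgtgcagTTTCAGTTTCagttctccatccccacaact
Gbp3: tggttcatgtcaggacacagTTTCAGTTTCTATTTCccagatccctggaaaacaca
Gbp2: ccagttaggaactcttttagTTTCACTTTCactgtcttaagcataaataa
Irgm1: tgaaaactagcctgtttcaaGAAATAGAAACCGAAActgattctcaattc
Igtp: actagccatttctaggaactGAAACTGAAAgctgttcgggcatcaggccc
Irgm2: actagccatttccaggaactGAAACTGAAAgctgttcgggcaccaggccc

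The matches in *Gbp3* and *Irgm1* are overlapping pairs. A second start site annotated for *Gbp3* held no match. TTCNNNGAA, the gamma-activated site of interferon-gamma target genes, was found in 4 of the 7, in 2 copies each upstream of *Gbp5* and *Gbp7* and 1 copy each upstream of *Igtp* and *Irgm2*, against 7.02% of all promoters and 8.13% of their genes. *Gbp2*, *Gbp3* and *Irgm1* held none of these letters in the same window. The *Igtp* and *Irgm2* upstream sequences aligned with 197 identical bases in 221 columns (89.1%), and in both the gamma-activated letters stand just before the response element core. A match is a run of letters and was not shown to be a bound site.

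**Figure D1:**
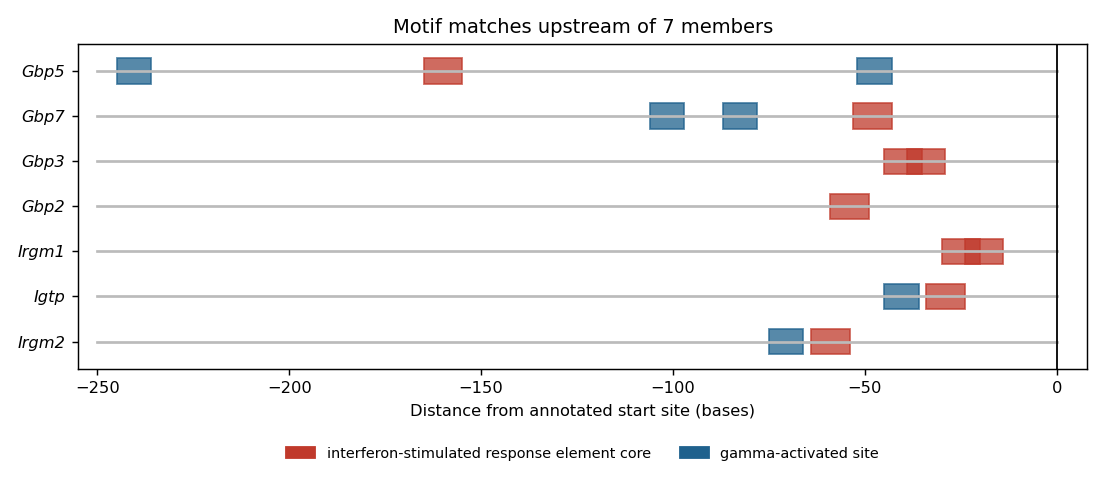
Matches to the GAAA repeat (red) and TTCNNNGAA (blue) in the 250 bases upstream of the first annotated start site of 7 members; the horizontal axis is the distance from the start site in bases. Each of the 7 genes holds the red motif, and *Gbp5*, *Gbp7*, *Igtp* and *Irgm2* also hold the blue one.

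The libraries held 12783252 to 22809401 reads assigned to genes by STAR, which counts only reads placed at 1 position. Reads placed at several positions made up 12.7 to 13.4% of reads in the young libraries and 10.4 to 10.8% in the adult ones. Reads that mapped outside annotated exons made up 8.84 to 11.8% in young TOM+, 10.7 to 12.8% in young TOM- and 15.2 to 17.1% in adult libraries. These can lie in introns or between genes, which the STAR counts do not separate. In both young groups library 81 had the highest share of them. All 11 cDC2 markers listed were above 1 TPM in at least 1 library, and their summed level was 58789 to 66036 TPM (TPM is the level per transcript length and library size that RSEM gives) in young and 92745 to 96049 TPM in adult libraries. They did not move together. Against young TOM+ cDC2, 7 were higher and 3 lower in adults at an adjusted p under 0.05 (edgeR). Log2 fold changes ran from -1.80 to 1.49, with 2 called higher and 1 lower. The 7 markers listed for NK cells and ILC1, which make interferon-gamma, were all under 1 TPM in every library. The 6 T cell markers summed to 0.89 to 6.62 TPM in young TOM+ and 2.77 to 6.18 TPM in young TOM- cells. In adult TOM+ cells they summed to 1.71 to 2.19 TPM. Against young TOM+ cDC2, 1 T cell marker was called higher in adults, while 2 had positive and 4 negative log2 fold changes. Of the 6 markers listed for type 1 dendritic cells, *Clec9a*, whose locus carried Cre on both alleles, and *Itgae* were under 1 TPM in every library. All 6 summed to 150 to 193 TPM in young TOM+, 143 to 198 TPM in young TOM- and 127 to 150 TPM in adult TOM+ cells. Against young TOM+ cDC2, 5 of them had a negative and 1 a positive log2 fold change in adults. Red blood cell markers summed to 1173 TPM in 1 young TOM- library and to 1.39 to 95.7 TPM in the 6 TOM+ libraries. Neutrophil markers reached 32.8 TPM in young TOM-, 1.01 TPM in young TOM+ and 0.34 TPM in adult libraries at most. The 8 monocyte markers summed to 1737 to 2575 TPM in young TOM+, 1847 to 3075 in young TOM- and 1850 to 2365 in adults. Against young TOM+ cDC2, 4 of the 8 had positive and 4 negative log2 fold changes in adults. The 10 macrophage markers, of which *Cd5l*, *Marco* and *Siglec1* were under 1 TPM in every library, summed to 326 to 356 TPM in young TOM+, 415 to 460 TPM in young TOM- and 255 to 312 TPM in adult TOM+ cells. They did not move together between young and adult TOM+ cDC2. Of the 10, 4 had positive and 6 negative log2 fold changes, from -2.37 to 2.06, with a median of -0.16. The 6 B cell markers, with *Pax5* and *Ebf1* under 1 TPM throughout, summed to 61.0 to 70.7 TPM in young TOM+, 70.0 to 80.8 TPM in young TOM- and 41.1 to 54.0 TPM in adult TOM+ cells. Most of that sum was *Cd79b*, which fell in adults (log2 fold change -0.90 against young TOM+ cDC2, adjusted p = 5.3e-05, edgeR). Of the 5 tested, the other 4 had positive log2 fold changes, and 2 were called higher, with *Ms4a1* at 2.88. The median of the 5 was 1.35, so the sum does not stand for the list. The 7 markers listed for innate lymphoid cells other than ILC1 summed to 35.8 to 57.3 TPM in young TOM+, 96.8 to 159 TPM in young TOM- and 104 to 141 TPM in adult TOM+ cells, and *Il23r* and *Il22* were under 1 TPM in every library. Of the 6 tested, *Ccr6* (1.36), *Tcf7* (2.19) and *Il23r* (4.68) were called higher and *Il1rl1* (-2.87) lower in adult than in young TOM+ cDC2. *Ccr6* and *Tcf7* were also called lower in young TOM+ than in young TOM- cells. The part that these read and marker differences have in the results was not tested. The labels do not say that libraries of a group came from separate animals, so p-values measure only the spread between these libraries.

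Adult TOM+ cDC2 had higher levels of most of these GTPases than TOM+ cDC2 of 8-day-old mice. Here a gene is called when its log2 fold change is beyond 1 in either direction and its p-value, adjusted by the Benjamini-Hochberg method over all 14452 tested genes, is under 0.05 in edgeR's quasi-likelihood test of the STAR counts (log2 fold changes are given ± SE). By this rule *Gbp2*, *Gbp4*, *Gbp5* and *Gbp9* were called higher in adults, 4 of 10, where 6.86% of all tested genes were called higher and 12.8% in either direction. *Irgm1*, *Irgm2* and *Igtp* also rose at an adjusted p under 0.05 but by less than 2-fold, which brings the members that passed on p alone to 7 higher and, with *Gbp7*, 1 lower, against 19.5% and 21% of tested genes. TPM was higher in every adult library for the same 7 members, against 17.4% of tested genes, and lower in every adult library for *Gbp7*, against 34.7%. *Gbp3* did not pass, and *Iigp1* was near the limit of detection. The median log2 fold change of the 10 members was 0.98, and that of all tested genes was -0.05. In bulk libraries like these, fewer cells with a transcript and less of it per cell cannot be told apart.

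*Gbp2*, which coats vacuoles of parasites and bacteria, stood at 14.5, 14.7 and 10.7 TPM in young TOM+ cDC2, 14.5, 17.6 and 13.8 TPM in young TOM- DC2 and 32.4, 31.2 and 28.9 TPM in adult TOM+ cDC2. Every adult library was above every young one, with means of 13.3 ± 2.25 TPM (SD, n = 3) in young and 30.8 ± 1.78 TPM (SD, n = 3) in adult TOM+ cDC2. By edgeR it was 2.54-fold higher in adults (log2 fold change 1.35 ± 0.15, adjusted p = 2.0e-05). *Gbp5*, which promotes inflammasome assembly, had the lowest mean of the 6 GBPs in every group, at 3.94, 2.86 and 2.01 TPM in young TOM+ cDC2, 3.1, 2.76 and 3.31 TPM in young TOM- DC2 and 9.12, 4.99 and 7.74 TPM in adult TOM+ cDC2. The adult libraries again lay above all young ones but spread widely, and the difference was 2.69-fold (log2 fold change 1.43 ± 0.25, adjusted p = 0.00063). It had 74 to 136 STAR counts per library in young TOM+ cDC2 and 112 to 230 in adults, and its 95% interval of 1.85 to 3.91-fold was the widest among the called members.

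*Gbp4* and *Gbp9*, the neighbouring pair on chromosome 5, were among the most abundant members. *Gbp4* reached 24.1, 17.3 and 16.2 TPM in young TOM+ cDC2, 26.6, 21.4 and 21.1 TPM in young TOM- DC2 and 53.6, 44.7 and 44.7 TPM in adult TOM+ cDC2. The groups of young and adult TOM+ cDC2 did not overlap, and *Gbp4* was 2.7-fold higher in adults (log2 fold change 1.43 ± 0.13, adjusted p = 6.0e-06). *Gbp9* had the highest mean level of the members in every group, at 56.3, 39.8 and 39.9 TPM in young TOM+ cDC2, 63.6, 52.8 and 49.8 TPM in young TOM- DC2 and 85.9, 75.6 and 96.5 TPM in adult TOM+ cDC2. It was also higher in each adult library than in any young one (log2 fold change 1.04 ± 0.12, adjusted p = 3.1e-05), but its 2.05-fold difference lay so near the 2-fold limit that the call was lost when young TOM+ library 91 (log2 fold change 0.97), young TOM+ library 92 (0.99) or adult library 95 (0.98) was left out. The call was also lost with limma on log2(TPM + 1) (0.92) and on log2(TPM + 0.1) (0.93), and it held in 15 of the 20 alternatives computed.

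*Gbp7* and *Gbp3*, which lie between *Gbp5* and *Gbp2* on chromosome 3, were not among the genes that rose. *Gbp7*, linked to assembly of the phagocyte oxidase and to autophagy, was at 12.7, 11.2 and 10.1 TPM in young TOM+ cDC2, 14.6, 15.1 and 11.5 TPM in young TOM- DC2 and 8.46, 8.19 and 7.51 TPM in adult TOM+ cDC2. It was lower in every adult library than in any young one and fell by 0.36 on the log2 scale between young and adult TOM+ cDC2 (SE 0.12, adjusted p = 0.034 by edgeR), a difference under 2-fold. This p no longer passed when young TOM+ library 81 (adjusted p = 0.09), young TOM+ library 91 (0.092), adult library 92 (0.061) or adult library 95 (0.12) was left out in the same edgeR fit, while the log2 fold change stayed negative, between -0.48 and -0.22, under all 20 alternatives computed. *Gbp3* was at 16.1, 13.1 and 14.3 TPM in young TOM+ cDC2, 16.1, 17.8 and 12.1 TPM in young TOM- DC2 and 17.3, 15.6 and 15.2 TPM in adult TOM+ cDC2. These groups overlapped, and its log2 fold change between TOM+ groups was 0.30 with a 95% interval of -0.01 to 0.60 (adjusted p = 0.11, edgeR), so a rise of up to 1.52-fold lies inside it.

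**Figure D2:**
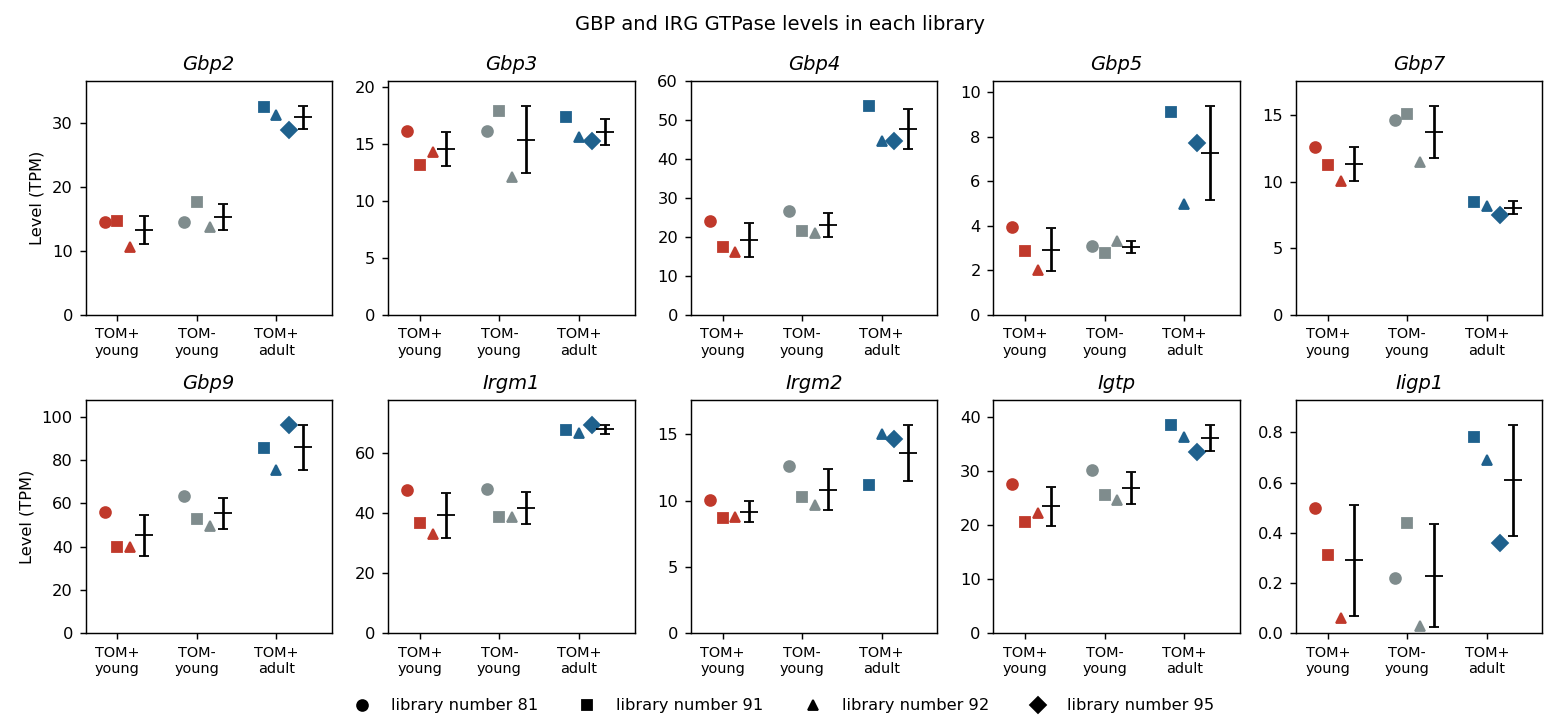
Level of each member in TPM (vertical axes, from 0) in each of the 9 libraries; symbols give the library number, and the black bar and whiskers the mean ± SD of 3 libraries. In 7 of the 10 panels the adult TOM+ cDC2 points lie above all young TOM+ cDC2 points, in the *Gbp7* panel they lie below, and in the *Gbp3* and *Iigp1* panels they overlap.

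The 3 IRGM regulators all rose, each by less than 2-fold. *Irgm1* stood at 47.8, 36.8 and 33.3 TPM in young TOM+ cDC2, 48.0, 38.7 and 38.8 TPM in young TOM- DC2 and 67.7, 66.8 and 69.6 TPM in adult TOM+ cDC2. The adult libraries had an SD of 1.42 TPM (n = 3) and lay above all young ones, with a 1.9-fold difference (log2 fold change 0.92 ± 0.11, adjusted p = 3.9e-05). It passed the 2-fold limit in 4 of the 20 alternatives, those that leave out young TOM+ library 81 or compare within library numbers. *Igtp*, which encodes Irgm3, was at 27.6, 20.7 and 22.3 TPM in young TOM+ cDC2, 30.2, 25.6 and 24.7 TPM in young TOM- DC2 and 38.6, 36.3 and 33.6 TPM in adult TOM+ cDC2, again without overlap, and rose 1.71-fold (log2 fold change 0.78 ± 0.11, adjusted p = 0.00015). *Irgm2* was at 10.1, 8.73 and 8.76 TPM in young TOM+ cDC2, 12.6, 10.3 and 9.65 TPM in young TOM- DC2 and 11.2, 15.0 and 14.6 TPM in adult TOM+ cDC2. Its adult library 91 was close to the highest young TOM+ value and below the highest young TOM- value. The other two adult libraries were higher, and the difference from young TOM+ cDC2 was 1.63-fold (log2 fold change 0.71 ± 0.13, adjusted p = 0.00098).

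*Iigp1*, the only effector IRG among the members, was barely detected. It was at 0.5, 0.31 and 0.06 TPM in young TOM+ cDC2, 0.22, 0.44 and 0.03 TPM in young TOM- DC2 and 0.78, 0.69 and 0.36 TPM in adult TOM+ cDC2, which corresponds to 1 to 17 STAR counts per library. The groups overlapped, and the log2 fold change between adult and young TOM+ cDC2 was 1.11 with a 95% interval of -0.66 to 2.89 (adjusted p = 0.3, edgeR), so the size of the difference was poorly determined. With the replicate number as a block *Iigp1* was called higher in adults, at a log2 fold change of 2.03 against young TOM+ cDC2 (adjusted p = 0.042, edgeR), although adult and young numbers did not pair over all genes.

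Summed over the 10 members, the level was 214, 165 and 158 TPM in young TOM+ cDC2, 230, 203 and 185 TPM in young TOM- DC2, and 325, 299 and 319 TPM in adult TOM+ cDC2. The young libraries numbered 81 had the highest sum in both young groups, and every adult sum was higher than every young one. The 4 IRGs contributed 118 or 119 TPM in each adult library and on average 72.3 ± 11.9 TPM (SD, n = 3) in young TOM+ cDC2 and 79.7 ± 9.83 TPM (SD, n = 3) in young TOM- DC2. Within each group the order of levels was nearly the same. *Gbp9* led in all 3, followed by *Irgm1*. In young TOM+ cDC2 the ranges of these neighbours overlapped, but *Gbp9* was above *Irgm1* within every library. In both young groups *Igtp* and *Gbp4* came next, with overlapping ranges but with *Igtp* above *Gbp4* within every library. In adults the order was reversed, and *Gbp4* lay above *Igtp* in every library. *Gbp3*, *Gbp2* and *Gbp7* overlapped with their neighbours in the young groups, and in adults they were spread out, *Gbp2* at 28.9 to 32.4 TPM, *Gbp3* at 15.2 to 17.3 TPM and *Gbp7* at 7.51 to 8.46 TPM.

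Because a ratio of 2 genes within a library does not depend on how libraries are scaled, pairs were also compared that way; the pairs were chosen after their values were seen and are given with no test. *Gbp2* and *Gbp7* were nearly equal in TPM in the young libraries, with ratios of 1.14, 1.31 and 1.06 in TOM+ cDC2 and 0.991, 1.16 and 1.20 in TOM- DC2, while adult libraries held ratios of 3.83, 3.81 and 3.85. The ratio of *Gbp2* to *Gbp3* was 0.747 to 1.14 over the 6 young libraries and 1.87 to 2.01 in adults. *Irgm2* and *Igtp* kept like proportions, at a mean ratio of 0.393 ± 0.029 (SD, n = 3) in young TOM+ cDC2, 0.403 ± 0.013 (SD, n = 3) in young TOM- DC2 and 0.379 ± 0.079 (SD, n = 3) in adults, where library 91 was lowest at 0.289.

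The same adult libraries were also compared with young TOM- DC2, which are type 2 dendritic cells without a TOM label. The 2 age comparisons share the adult libraries and are not independent of each other. *Gbp2* (log2 fold change 1.17 ± 0.15, adjusted p = 6.7e-05), *Gbp4* (log2 fold change 1.21 ± 0.13, adjusted p = 2.7e-05) and *Gbp5* (log2 fold change 1.40 ± 0.25, adjusted p = 0.00086) were called higher in adults, 3 of 10, where 4.78% of all tested genes were called higher and 11.3% in either direction. *Gbp9* at 0.80, *Irgm1* at 0.86, *Igtp* at 0.60 and *Irgm2* at 0.50 rose with an adjusted p between 8.2e-05 and 0.0094 but by less than 2-fold. The adult *Irgm2* range overlapped that of young TOM- DC2. *Gbp7* fell by 0.60 (SE 0.12, adjusted p = 0.002, edgeR), and passed on p under all 20 alternatives. On p alone 7 members were higher and 1 lower, against 16.9% and 19.4% of tested genes; in TPM 6 members were higher in every adult library and 1 was lower, against 13.7% and 36.4%. *Gbp3* at 0.26 (adjusted p = 0.17) and *Iigp1* at 1.64 (adjusted p = 0.16) did not pass in edgeR, while with the replicate block *Iigp1* was called at 2.46 (adjusted p = 0.016). The median of the members was 0.83, and that of all tested genes -0.07.

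**Figure D3:**
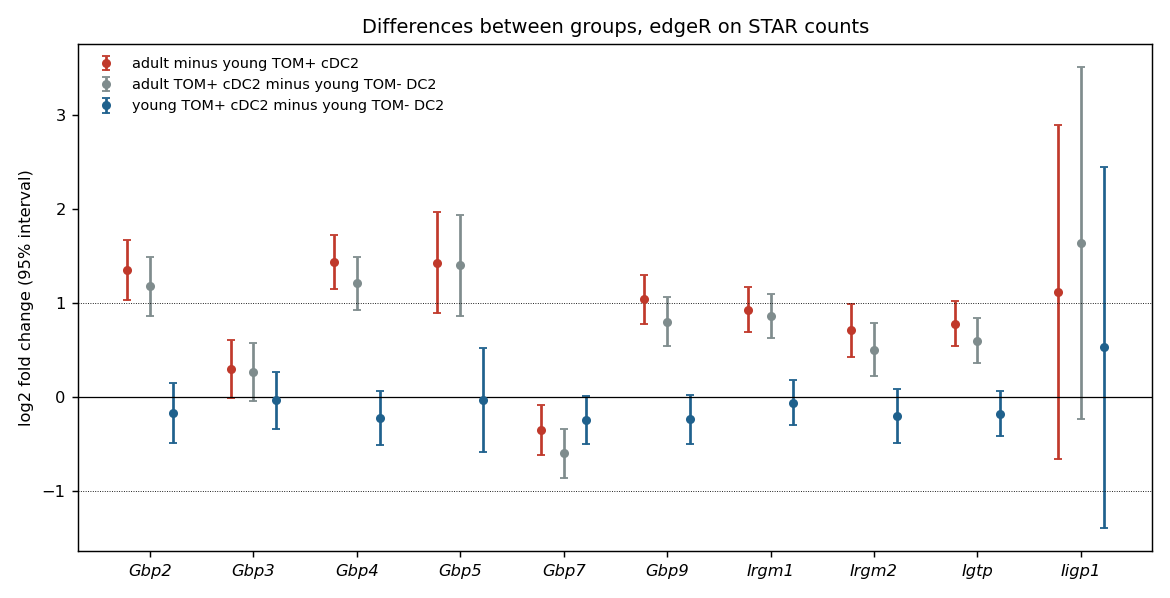
Log2 fold change of each member (vertical axis, with 95% intervals from the edgeR fit) in the 3 comparisons; dotted lines mark 2-fold differences. Red and grey points, the 2 comparisons with adults, lie above 0 for every member but *Gbp7*, and blue points, the 2 young groups, lie between -0.25 and 0.53.

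Whether the members depended on the TOM label was compared in the young mice. None of the 10 was called and none passed on adjusted p, at a background of 1.18% of tested genes called and 1.6% passing on p, and none reached an unadjusted p under 0.05 with edgeR or with DESeq2 when libraries were not paired. The log2 fold changes of young TOM+ cDC2 minus young TOM- DC2 ran from -0.25 for *Gbp7* to 0.53 for *Iigp1*, and 9 of the 10 were negative. The TPM ranges of the 2 groups overlapped for all 10, where 14.4% of tested genes did not overlap. A p that misses the threshold does not show equal levels, and the 95% intervals of this unpaired edgeR fit on the log2 scale were -0.49 to 0.15 for *Gbp2*, -0.52 to 0.06 for *Gbp4*, -0.50 to 0.02 for *Gbp9* and -0.50 to 0.01 for *Gbp7*. For *Gbp5* the interval was wider, at -0.58 to 0.52, and for *Irgm1*, *Igtp* and *Irgm2* it was -0.30 to 0.17, -0.42 to 0.06 and -0.49 to 0.08. Outside *Iigp1*, every interval lay within a 2-fold difference in either direction. Same-numbered young libraries deviated together, most clearly for number 81 (r = 0.50) and least for 91 (r = 0.18), whose pairing is uncertain. With the replicate number as a block in the edgeR fit *Gbp9* was lower in TOM+ cDC2 at an adjusted p of 0.025. Its log2 fold change of -0.25 is under 2-fold and not a call. In that paired fit 4 of the 10 members had an unadjusted p under 0.05, *Gbp9*, *Gbp4* (log2 fold change -0.24, adjusted p = 0.059), *Gbp7* (-0.24, adjusted p = 0.088) and *Igtp* (-0.18, adjusted p = 0.22). These and *Irgm2*, 5 of 10, were lower in TOM+ cDC2 within each of the 3 numbers, and none was higher within each. Within numbers, the median difference of the members, on the log2 scale after scaling for depth, was -0.05 for number 81, -0.28 for 91 and -0.18 for 92.

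The GBP and IRG genes descend from copies of each other, so some reads fit more than 1 gene. STAR leaves such reads out, whereas RSEM shares them between the genes and reports expected counts. The share of all 50-base stretches of a member's annotated transcripts, the read length, that also occur in another gene was lowest for *Gbp5* (0.234%) and *Irgm1* (0.995%) and highest for *Igtp* (12.3%, with *Irgm2* as the main partner), *Gbp4* (12.8%) and *Gbp7* (12.8%). For *Gbp7* the main partner was the gene model *Gm43802*, with 10.6% of the stretches. Over the 9 libraries the RSEM expected count was 0.964 times the STAR count for *Gbp5* and 1.19 times for *Gbp9*, the lowest and highest of the members, with *Gbp4* at 1.15, *Igtp* at 1.09 and *Gbp7* at 1.01. These ratios were close to the same in each group, for *Gbp9* 1.18 in young TOM+ cDC2, 1.20 in young TOM- DC2 and 1.20 in adults. An edgeR fit of the RSEM expected counts moved the log2 fold changes of the 10 members by at most 0.093 in any comparison, and by at most 0.051 without *Iigp1*, and left the calls as they were.

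**Figure D4:**
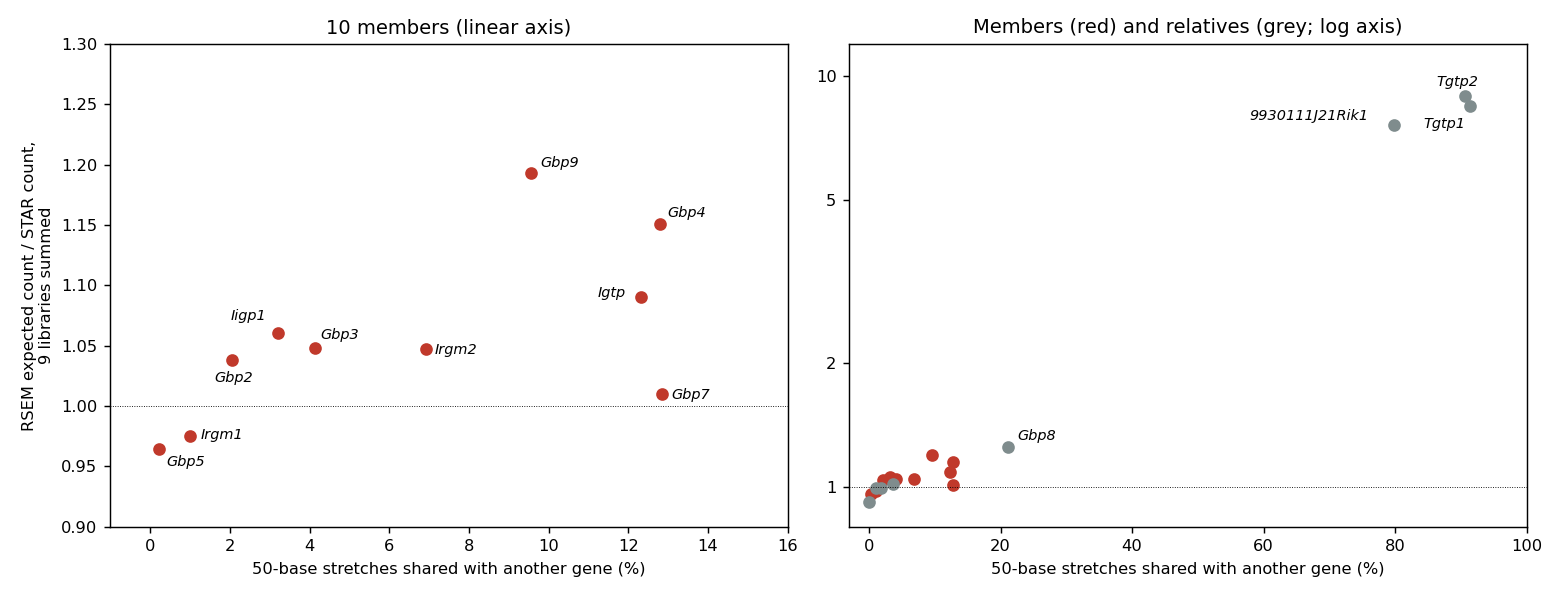
RSEM expected counts divided by STAR counts, summed over 9 libraries (vertical axes), against the share of 50-base stretches found in another gene (horizontal axes), for the members alone and with those relatives that have at least 50 STAR counts. The members lie between 0.964 and 1.19, and *Tgtp1*, *Tgtp2* and *9930111J21Rik1* lie above 7.

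The other GBP and IRG genes were compared in the same way, between adult and young TOM+ cDC2. *Gbp8*, next to *Gbp9*, was at 43.0, 50.2 and 113 TPM on average in young TOM+, young TOM- and adult TOM+ cells and was called higher in adult than in young TOM+ cDC2 (log2 fold change 1.54 ± 0.17, adjusted p = 2.3e-05), with a ratio of RSEM to STAR of 1.25. *Gbp2b*, *Gbp6*, *Gbp10* and *Gbp11* had mean levels under 1 TPM in every group, and *Gbp10* passed the call on at most 5 STAR counts in a library and 0 in all young TOM+ libraries. Among the effector IRGs, *Ifi47* (log2 fold change 1.51 ± 0.13, adjusted p = 4.8e-06) and *Gm12250* (log2 fold change 1.56 ± 0.20, adjusted p = 7.3e-05) were called higher in adults. *Tgtp1* (log2 fold change 3.37 ± 0.32, adjusted p = 7.2e-06) and *Tgtp2* (log2 fold change 2.43 ± 0.24, adjusted p = 1.0e-05) were too, but 91.4% and 90.6% of their 50-base stretches are shared, mostly with each other, and RSEM gave 8.48 and 8.94 times the STAR count, so the split between these genes is uncertain. *Irgc1* was called lower (log2 fold change -1.09 ± 0.23, adjusted p = 0.0027) and *Irgq* was at -0.59 (adjusted p = 0.033), and neither is known as interferon-inducible. *9930111J21Rik1*, *9930111J21Rik2* and *Gm4951* did not pass, and *Gvin1* and *F830016B08Rik* were not tested. *9930111J21Rik2*, with 97.9% of its stretches shared, had 2 to 13 STAR counts per library but 197 to 418 RSEM expected counts. Its mean was 10.3 TPM in young and 20.9 TPM in adult TOM+ cDC2, so the test on STAR counts cannot decide its change. *Gvin1* had 0 STAR counts in every library, but 0.43 to 0.9 TPM in young TOM+ cDC2 and 1.81, 1.56 and 22.5 TPM in adults.

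The genes that carry the interferon-gamma signal were read from a list in the same comparison of adult with young TOM+ cDC2. *Irf8*, a transcription factor of the pathway and of dendritic cell development, was called higher and rose from 23.6 ± 3.13 TPM to 47.2 ± 2.03 TPM (SD, n = 3 each; log2 fold change 1.10 ± 0.11, adjusted p = 1.4e-05); in young TOM- DC2 it was at 41.5 ± 2.55 TPM (SD, n = 3), above young TOM+ cDC2 by a log2 fold change under 1 (young TOM+ minus young TOM- log2 fold change -0.77 ± 0.11, adjusted p = 0.0027). Another 9 genes rose by less than 2-fold, among them the receptor chain *Ifngr1* (0.76), *Irf1* (0.98), *Irf9* (0.96), *Stat2* (0.78), *Irf2* (0.72) and the phosphatase *Ptpn6* (0.69). For 1 of these 9, the phosphatase *Ptpn2*, the log2 fold change was 0.28 (adjusted p = 0.024, edgeR), while its mean level was 93.7 TPM in young and 92.8 TPM in adult TOM+ cDC2. The inhibitor *Socs3* fell (log2 fold change -0.68, adjusted p = 0.0086, edgeR), and *Jak1* (0.24), *Jak2* (0.27), *Socs1* (0.21), *Ptpn11* (-0.35) and *Batf2* (1.72) did not pass. *Ifng* itself had 2 STAR counts in 1 young TOM- library and 0 in the other 8, and a count of 0 allows up to 3 counts in each.

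Other interferon-regulated genes were counted the same way. Between adult and young TOM+ cDC2, 6.86% of all tested genes were called higher in adults and 12.8% in either direction. Of 32 tested further targets of interferon-gamma, 8 were called higher in adult than in young TOM+ cDC2 and none lower, with a median log2 fold change of 0.59; the largest rises were those of the chemokine *Cxcl9* (2.28), the MHC class I transactivator *Nlrc5* (2.06) and the chemokine *Ccl5* (2.04). Of 28 tested genes known chiefly as type I interferon-stimulated, 21 were called higher and none lower, with a median of 1.46, led by *Ifi44* (4.58), *Oas2* (2.93) and *Oas3* (2.60). Many genes of both lists respond to either interferon. Of 13 tested genes of the autophagy conjugation machinery that helps load GTPases onto vacuoles, *Map1lc3a* (1.31) and *Gabarapl1* (1.06) were called higher. That list was split, with 7 positive and 6 negative log2 fold changes and a median of 0.27. Of 8 tested inflammasome genes *Il1b* (1.17) was called higher, with a median of 0.31 for the list. At an adjusted p under 0.05 (edgeR) 4 of the 8 were higher and 2 lower. Between the young groups, where 1.18% of all tested genes were called, 1 gene of these GBP, IRG, signalling, target, autophagy and inflammasome lists was called. This was *Upp1*, for a uridine phosphorylase, and it is named after its values were seen. It was lower in TOM+ cDC2 (log2 fold change -2.70, adjusted p = 0.028, edgeR) on 5 or 6 STAR counts per TOM+ library.

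**Figure D5:**
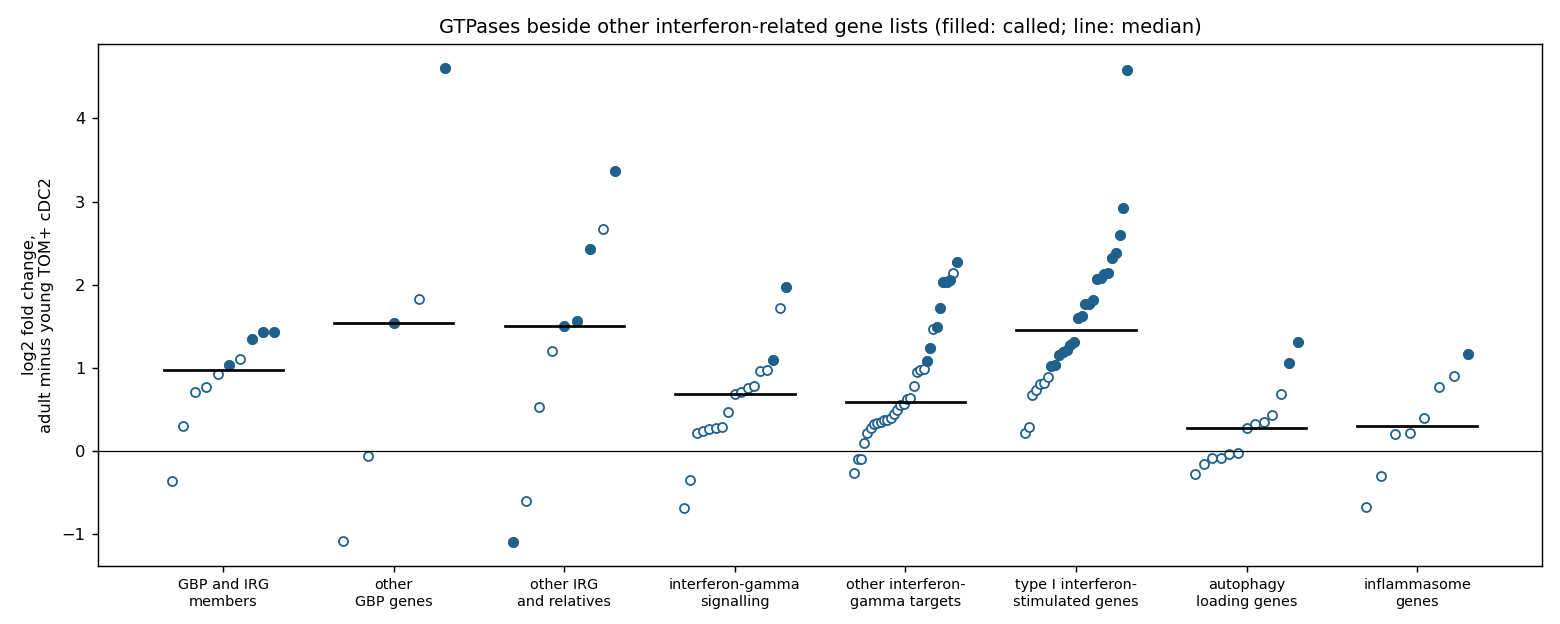
Log2 fold change of adult minus young TOM+ cDC2 (vertical axis) for every tested gene of 8 lists, with called genes filled and the median as a line. The members have a median of 0.98, interferon-gamma signalling genes 0.69, further interferon-gamma targets 0.59 and type I interferon-stimulated genes 1.46; *Gbp10*, the highest point among the other GBP genes, had 0 counts in all young TOM+ libraries, so its fold is not a measure of size.

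The members' mean profile over the 9 libraries, each gene taken as log2(TPM + 1) minus its own mean, ran from -0.44 in young TOM+ library 92 to 0.45 in adult library 91. Among 9085 genes with a mean of at least 5 TPM, the non-members closest to it by root mean square difference over the 9 libraries were *Cbx7* (0.059), *Col4a3bp* (0.066), *Gtpbp2* (0.083), *Phyh* (0.084) and *Trim30a* (0.084). *Igtp* was at 0.077 between *Col4a3bp* and *Gtpbp2*, whereas *Gbp7* was at 0.54. The mean profile includes these members, so a member's distance is in part to itself and is not on a par with that of non-members.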

How the data were processed

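RNA from sorted splenic dendritic cells was made into cDNA with SMART-seq v4, which does not keep strand, and sequenced as 50-base single reads. The authors mapped reads to mm10 with STAR (versions of STAR and RSEM are not given in the sources used here); the deposited STAR files hold counts of reads placed at 1 position per gene, and the unstranded column was used. The deposited RSEM files hold expected counts, which share out reads that fit several genes, and TPM, which the authors calculated with RSEM per transcript length and library. Groups came from the sample labels.

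Counts of 9 libraries were fitted with edgeR 4.0.16 (R 4.3.3; TMM scaling, quasi-likelihood test, 3 groups, genes averaging under 1 count dropped, Benjamini-Hochberg adjustment over 14452 genes), with the authors' limits of 1 on the log2 fold change and 0.05 on adjusted p. DESeq2 1.42.0, limma 3.58.1 on log2(TPM + 1) or log2(TPM + 0.1), RSEM expected counts rounded to whole numbers, RLE scaling, other count filters, fits of only the groups compared, a replicate block and fits leaving out each library were alternatives. The fitting code was tested on simulated data. No 2 libraries agreed within sampling noise (chi-square per gene of 8.74 or more within groups). The numbers in the deposited names are not explained by the labels. Over all tested genes, deviations from the group mean correlated between same-numbered young TOM+ and TOM- libraries (r = 0.50 for 81, 0.18 for 91 and 0.33 for 92). Young libraries were therefore treated as paired in the block. Young pairs of different numbers ran from r = -0.41 to 0.19. The highest, TOM+ 92 with TOM- 91 (0.185), was above the same-numbered pair of 91 (0.179), so the pairing of 91 is uncertain. Same-numbered young and adult libraries did not correlate (r between -0.002 and 0.041). At 74 or more counts per library for 9 of the members, precision is limited by the 3 libraries per group; counting error alone is large only for *Iigp1*.

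Members and gene lists were chosen with earlier results of these data known. Named were all members, every other GBP and IRG gene, the interferon-gamma signalling genes, up to 3 called genes with the largest rise or fall of each further list with at least 1 TPM in a group, and the 5 genes closest to the members' mean profile. Upstream sequences came from RefSeq (GRCm38.p6); shared 50-base stretches were counted in GENCODE transcripts. Some genes of the signalling and marker lists are not reported here. Single-cell libraries were not used here.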

Additional observations from a re-analysis of the deposited data

How the results depend on the processing

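The 2 comparisons with adults kept the direction of all 10 members under each of the 20 alternatives, and the number called stayed within 1.5 times (3 to 6 of 10 against young TOM+ cDC2) in all but 1 of them. With limma on log2(TPM + 1), 1 member instead of 3 was called against young TOM- DC2. *Gbp2* at 0.97 and *Gbp5* at 0.998 fell short, where log2(TPM + 0.1) gave 1.01 and 1.19 and edgeR 1.17 and 1.40. The members' median was 0.70 against young TOM+ and 0.52 against young TOM-. Of all genes, 1122 and 986 were called in place of 1853 and 1631. With log2(TPM + 0.1) the second median was 0.67, and no pathway list gene in place of 1 was called between the young groups (0 against 1). On these TPM scales the median of all genes moved to between -0.22 and -0.10, from -0.05 and -0.07, with log2(TPM + 0.1) genes called higher made up 42.6% and 29.7% of all calls in place of 53.5% and 42.4%, and the cause of the remaining change was not tested. Leaving out 1 library gave a median of 0.81 (without young TOM+ library 92) to 1.11 (without young TOM+ library 81), and 1.14 without both young libraries numbered 81, a fit added after seeing the data. Between the young groups, where no member was called in any fit, signs changed when 1 library was left out: log2 fold changes ran from -0.18 to 0.12 for *Gbp3*, -0.26 to 0.18 for *Gbp5*, -0.19 to 0.033 for *Irgm1* and -0.22 to 1.504 for *Iigp1*, and 0 to 1 pathway list genes were called. *Iigp1* was at -0.22 without both libraries numbered 81 and at -0.22 in a replicate block of numbers 91 and 92 alone, also added after seeing the data.

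With the replicate block, 274 genes in place of 170 were called between the young groups, and 2 pathway list genes in place of 1 (2 also with numbers 91 and 92 alone). Against young TOM+ cDC2 it called 6 members in place of 4: *Irgm1* reached 1.03 (adjusted p = 3.2e-08, edgeR) and *Iigp1* 2.03 (0.042), while *Gbp3* passed on p (0.045) and *Gbp7* missed it (0.051). Against young TOM- DC2 it added *Iigp1* at 2.46 (0.016). Adult library 95 shares its number with no other library and drops out of the block, and the adult numbers did not pair. It changed no other call of a member.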
